A study of Mus musculus with 18 samples.

Results

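The transcriptomes of liver and lung were compared in control mice, that is, in mice without the cyclin E1 transgene. The comparison used 6 of the 18 libraries of the series, 3 from control liver and 3 from control lung, and all genes that passed a low-count filter, which were 16043 of the 24062 symbols in the count table. These control mice (TA) carried rtTA, the reverse tetracycline transactivator that binds DNA when doxycycline is present, and no inducible Ccne1. The other mice of the series (CCNE-TA) carried rtTA together with a Tet-inducible Ccne1 transgene. All mice were C57BL/6, received doxycycline from 3 weeks of age and were killed at 4 months, so the drug and the transactivator were shared by every library described here. The promoter that drives rtTA, and whether a liver and a lung came from the same mouse, are not given in the sources used here. Because whole tissue was sequenced, fewer cells of a type and less RNA per cell cannot be told apart in any of the differences below. The labels do not state that the libraries of a group came from separate animals, so the p-values measure the spread between these libraries.

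The liver is built mainly of hepatocytes, which secrete most plasma proteins and carry out urea, glucose, lipid, bile acid and drug metabolism, beside sinusoidal endothelial cells, stellate cells, bile duct cells and Kupffer cells, the resident macrophages. The lung holds flat alveolar type 1 cells for gas exchange, surfactant-producing type 2 cells, airway club and ciliated cells, a dense capillary bed, connective tissue and many immune cells. Cells of both organs are mostly quiescent in the adult, and cyclin E1 with CDK2 drives the G1 to S transition in cells that enter the cycle.

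Totals ranged from 38552888 to 61954486 counts in the livers and from 41597623 to 80515797 in the lungs. The liver libraries were dominated by few transcripts: 139 to 160 genes held 50 percent of the counts, against 825 to 957 genes in the lungs. Levels are given as CPM, counts scaled to the library's total and to the trimmed mean of M values (TMM), whose factors were 0.618 to 0.686 in liver and 1.52 to 1.57 in lung. Across all genes tested the Pearson correlation of log levels was 0.977 to 0.986 among livers, 0.612 to 0.68 between a liver and a lung, 0.993 between lungs TA 1 and TA 2, and 0.954 to 0.963 between lung TA 3 and the other lungs, so lung TA 3 stood apart within its group. Xist, the RNA of the inactive X chromosome, reached 595 CPM in the first liver, 438 CPM in lung TA 1 and 460 CPM in lung TA 2, and at most 0.396 CPM in the other 3 libraries, which instead had the Y-linked Ddx3y at 34.9 to 76.0 CPM. The groups thus hold 1 female and 2 male livers, and 2 female lungs and 1 male lung.

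With edgeR's quasi-likelihood test and a Benjamini-Hochberg adjusted p under 0.05, 5174 genes were called higher in liver (32.3% of those tested) and 6412 higher in lung (40.0%). These shares are the background for the counts of every list below. A difference of at least 2-fold was called in 3477 genes for liver (21.7%) and 5533 for lung (34.5%). The largest differences lay on the lung side: 234 genes were called at least 1024-fold higher in lung and 8 in liver, on fitted values that for a gene without counts in one tissue depend on the prior count. A fold is also limited by the level in the lower tissue. Genes of the liver lists stood at medians of 0.514% to 1.85% of their liver level in the lungs. Among lung epithelial lists this share in the livers varied. Club cell genes had the lowest medians, 0.0177% to 0.0338% of their lung level. Ciliated cell genes stood at 0.149% to 0.265%, alveolar type 2 genes at 0.253% to 0.33% and alveolar type 1 genes at 0.377% to 0.902%. The part of this in the unequal counts was not tested. There were 517 tested genes without a count in any liver and 5 without a count in any lung. The median log2 fold change (liver minus lung) of all genes was -0.215, and it was -1.48 when libraries were scaled by total counts alone, where 14.4% of the calls were higher in liver against 44.7% under TMM. Upper-quartile scaling gave 34.5%. Directions of small differences therefore depend on the scaling, and lists and genes that turned are named below where their direction is given.

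**Figure D1:**
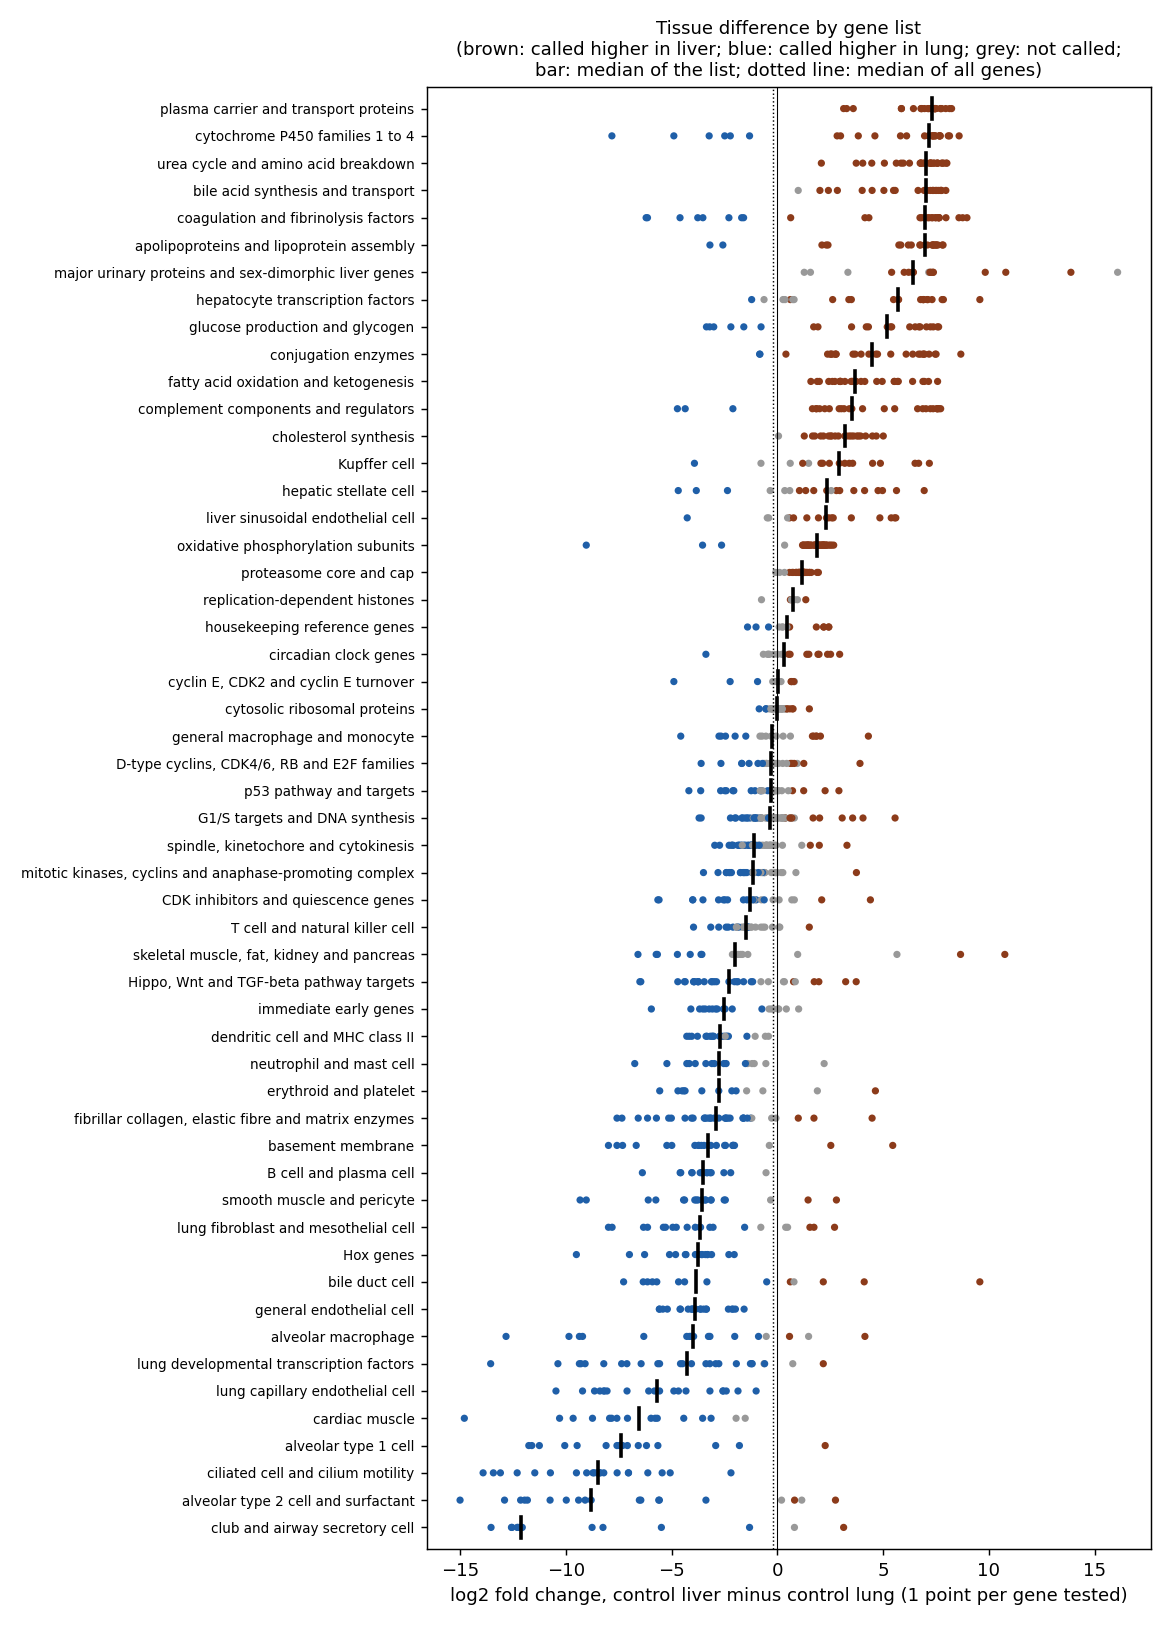
Log2 fold change (control liver minus control lung, x axis) of each tested member of 53 gene lists (y axis), with 3 libraries per tissue; brown points were called higher in liver, blue higher in lung and grey not called, and the black bar is the median of the list. Medians ran from -12.1 for club and airway secretory genes to 7.31 for plasma carrier proteins, and the dotted line marks the median of all genes, -0.215.

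All 27 plasma carrier and transport proteins were called higher in liver, with a median log2 fold change of 7.31. Alb, the serum albumin gene, stood at 157079, 142977 and 103471 CPM in livers TA 1, 2 and 3 and at 169, 267 and 899 CPM in lungs TA 1, 2 and 3, a log2 difference of 8.24 ± 1.02 (SE, edgeR adjusted p = 0.00029). It had the highest level per kilobase of exon of any gene in liver, 66130 ± 13662 CPM per kb (SD, n = 3). Trf (transferrin, iron carrier) had 24403 to 26287 CPM in the livers and 308 to 601 CPM in the lungs. Ahsg (fetuin-A) had 13831 to 15234 CPM in the livers and 19.0 to 105 CPM in the lungs. Serpina1e, one of several near-identical alpha-1-antitrypsin copies among which reads may be split, varied among livers themselves, at 1070, 20217 and 9997 CPM in TA 1, 2 and 3.

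Of 29 coagulation and fibrinolysis genes, 21 were called higher in liver and 8 higher in lung. The fibrinogen chains were among the largest differences, with Fga at 7858, 7739 and 20823 CPM in livers TA 1, 2 and 3 and at 6.13, 9.76 and 57.0 CPM in the lungs (log2 difference 8.97 ± 1.25, adjusted p = 0.00052). Plg (plasminogen), Kng1 (kininogen) and Serpinc1 (antithrombin) had log2 differences of 7.97, 7.49 and 7.49. The members called higher in lung included 3 that endothelium is known to make: Thbd (thrombomodulin) had 532 to 846 CPM in the lungs and 6.88 to 12.7 CPM in the livers, Vwf (von Willebrand factor) 296 to 437 against 15.2 to 16.1 CPM, and Plat (tissue plasminogen activator) 43.8 to 92.1 against 0.683 to 1.39 CPM. No library of one tissue overlapped the other for these genes, as was so for 12522 of the 16043 genes tested.

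Of 27 complement genes, 24 were higher in liver and 3 higher in lung. C3, the central component, had 15471 to 20683 CPM in the livers and 497 to 655 CPM in the lungs (log2 difference 5.06 ± 0.42, adjusted p = 4.2e-05), and Cfi, a protease that inactivates C3b, 1136 to 1377 against 2.3 to 12.7 CPM. The 3 genes higher in lung were Cfd, an adipocyte-rich protease (log2 difference -4.72), C7 (-4.36) and the membrane regulator Cd55 (-2.10).

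Among apolipoproteins and lipoprotein assembly genes, 21 of 23 were higher in liver. Apoa2, Apoe and Apoa1 followed Alb in level per kilobase in liver, at 17184 ± 217, 14835 ± 828 and 9776 ± 2054 CPM per kb (SD, n = 3). Apob, the structural protein of very low density lipoprotein, had 4912 to 6615 CPM in the livers and 8.91 to 73.3 CPM in the lungs. The 2 genes higher in lung act on lipoproteins in capillaries: Lpl (lipoprotein lipase; 201 to 301 CPM in the lungs, 16.4 to 44.7 in the livers) and Gpihbp1, which anchors it (97.4 to 121 against 14.2 to 22.9 CPM).

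Of the metabolic lists, all 31 tested genes of the urea cycle and amino acid breakdown and all 29 of fatty acid oxidation and ketogenesis were higher in liver, with median log2 fold changes of 7.04 and 3.68, as were 21 of 22 bile acid genes (7.01) and 22 of 23 cholesterol synthesis genes (3.19). Cps1, the first enzyme of the urea cycle, had 6603, 9832 and 7469 CPM in the livers and 8.85, 14 and 69.4 CPM in the lungs. Cyp7a1, the rate-limiting enzyme of bile acid synthesis, had 375, 186 and 108 CPM in livers TA 1, 2 and 3, and at most 2.61 CPM in a lung. Cholesterol synthesis genes were present in both tissues: Hmgcs1, an early enzyme of the pathway, had 218, 537 and 237 CPM in the livers and 55.6 to 70.5 CPM in the lungs.

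Glucose metabolism differed by isoform. Of 23 genes, 17 were higher in liver, among them the gluconeogenic enzymes Pck1 (3638 to 6336 CPM against 34.6 to 85.1 in the lungs) and Fbp1 (1425 to 1985 against 3.46 to 17.7). The other 6 were higher in lung and were glycolytic enzymes of tissues other than liver or a glucose transporter: Hk1 (log2 difference -3.35), Pfkp (-3.20), Pkm (-3.01), Hk2 (-2.20), Slc2a1 and Aldoa. Pkm had 221 to 313 CPM in the lungs and 28.3 to 37.3 CPM in the livers.

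In drug metabolism, 22 of 28 cytochrome P450 genes and 26 of 28 conjugation enzymes were higher in liver. Cyp2e1, which oxidises ethanol and other small molecules, had 14210 to 15324 CPM in the livers and 40.5 to 177 CPM in the lungs. The lung had P450 genes of its own. Cyp2s1 had 166 to 245 CPM in the lungs and 0.73 to 1.11 CPM in the livers (log2 difference -7.82 ± 0.28, adjusted p = 4.4e-06), and Cyp4b1 489 to 545 against 15.4 to 21.5 CPM. Cyp2f2, an abundant club cell enzyme and 1 of the 10 genes with the highest level per kilobase in lung, was higher there (2483 to 3593 CPM) and also abundant in liver (791 to 1635 CPM; log2 difference -1.31 ± 0.35, adjusted p = 0.012).

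Sex-dimorphic liver genes followed the sex of the liver libraries, and 14 of 19 were called higher in liver. Mup3, a major urinary protein gene of a family with near-identical copies, had 2832 CPM in the female liver TA 1 and 12040 and 8409 CPM in the male livers. Mup7 had 5.42, 5798 and 2046 CPM in livers TA 1, 2 and 3 and was not called (adjusted p = 0.085), and it was called without liver TA 1 (0.0396) or without lung TA 3 (0.0191). Conversely Cyp2c40 had 535, 46.1 and 13 CPM, Cyp2b9 had 892, 0.832 and 11.7 CPM, and Cyp2c69 had 1064, 12.4 and 1.55 CPM in livers TA 1, 2 and 3, so their place among the largest fold changes rests on 1 liver: without liver TA 1 the log2 differences of Cyp2b9 and Cyp2c69 were 4.23 and 6.86. The fitted log2 differences of Cyp2b9 and Cyp2c69 were 9.83 and 12.52, and these calls ended without lung TA 1 (adjusted p = 0.125 and 0.0869) or lung TA 2 (0.106 and 0.0698), and that of Cyp2b9 also without lung TA 3 (0.0616). Saa1 and Saa2, acute-phase serum amyloid genes of closely related sequence, had their high value in another library: 238, 90.5 and 7312 CPM, and 65.7, 22.9 and 6397 CPM, in livers TA 1, 2 and 3. Without liver TA 3 the log2 differences of Saa1 and Saa2 were 6.01 and 5.04, against 9.94 and 10.63 with it. The call of Saa2 ended without lung TA 1 (adjusted p = 0.0756) or lung TA 2 (0.0746).

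Transcription factors separated the tissues. Of 23 hepatocyte factors, 17 were higher in liver, 5 were not called and Tbx3 was higher in lung, a call that ended without any 1 of liver TA 1 or the 3 lungs (adjusted p = 0.0541 to 0.0846). Hnf4a, a master regulator of hepatocyte genes, had 1355, 1701 and 1296 CPM in the livers and 1.66, 3.01 and 15.1 CPM in the lungs (log2 difference 7.79 ± 1.01, adjusted p = 0.00038). Foxa3 had 89.8 to 158 CPM in the livers and 0.827 to 1.39 CPM in the lungs, whereas its relatives Foxa1 and Foxa2, which act in both organs, overlapped between tissues (Foxa1 14.9 to 47.3 and 37.9 to 46.6 CPM in liver and lung; Foxa2 29.4 to 86.7 and 27.8 to 31.4 CPM). Of 26 lung developmental factors, 23 were higher in lung, 2 were not called, and Sox9, which bile duct cells also express, was higher in liver (2.17 to 3.25 against 0.474 to 0.723 CPM). Nkx2-1, the factor that specifies lung epithelium, had 126, 152 and 108 CPM in the lungs and 0.165, 0.396 and 0.168 CPM in the livers (log2 difference -9.09 ± 0.35, adjusted p = 4.4e-06). Tbx2, Foxf1 and Foxj1, of lung mesenchyme, mesenchyme and endothelium, and ciliated cells, had log2 differences of -5.57, -5.65 and -8.21. All 17 Hox genes that passed the filter were higher in lung, led by Hoxa5 at 23.8 to 25.6 CPM against 0.236 to 0.436 CPM. A further 11 Hox genes of the list did not pass the filter.

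Epithelial markers gave the largest lists of differences towards lung. Scgb1a1, the club cell secretoglobin, had 57539, 61708 and 32235 CPM in lungs TA 1, 2 and 3 and 7.75, 8.4 and 9.15 CPM in the livers (log2 difference -12.55 ± 0.73, adjusted p = 1.1e-05). At 106080 ± 33508 CPM per kb (SD, n = 3) it had the highest level per kilobase in lung. Sftpc (surfactant protein C) came next at 12933 ± 1848 CPM per kb, and Sftpb (surfactant protein B) had 2089, 2522 and 3124 CPM in the lungs against 0.471, 0.872 and 0.629 CPM in the livers. In all, 13 of 15 club cell genes, 15 of 19 alveolar type 2 genes, 15 of 16 alveolar type 1 genes and 22 of 22 ciliated cell genes were called higher in lung. Ager, a marker of alveolar type 1 cells, had 1513 to 1611 CPM in the lungs and 0.198 to 0.755 CPM in the livers. The exceptions were Scd1 and Ctsh of the type 2 list, Igfbp2 of the type 1 list and Hp of the club cell list, all higher in liver: Scd1, a fatty acid desaturase, had 3950 to 7347 CPM in the livers and 495 to 1588 CPM in the lungs. Ctsh had 355 to 390 CPM in the livers and 189 to 257 CPM in the lungs, and its log2 difference of 0.81 turned to -0.45 under total-count scaling.

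The promoter window of Sftpb is given because it holds the letters CTCAAG, a core of the NKX2-1 binding element, or their reverse complement CTTGAG, marked in capitals. Windows reach from 250 bases before to 50 bases after the transcription start (RefSeq, GRCm38.p6) and are read 5′ to 3′ on the gene's strand.
Sftpb promoter window (chr6:72304360-72304659, plus strand): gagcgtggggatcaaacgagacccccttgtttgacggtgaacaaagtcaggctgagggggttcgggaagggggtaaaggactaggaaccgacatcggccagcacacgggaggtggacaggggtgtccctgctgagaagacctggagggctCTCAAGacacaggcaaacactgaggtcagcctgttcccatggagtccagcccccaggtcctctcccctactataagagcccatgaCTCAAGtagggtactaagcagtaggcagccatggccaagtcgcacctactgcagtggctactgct
The letters CTCAAG or their reverse complement were in 5 of 15 windows of the alveolar type 2 list (33.3%) and 6 of 13 of the club cell list (46.2%), against 15.9% of all 32851 windows. Gene copies within a family share window sequence, and a match is a description of the letters only.

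Several genes higher in lung were without a count in all 3 livers, so their folds are lower bounds set at 3 counts per library. Rasgef1a had 77.5, 81.4 and 81.0 CPM in the lungs, at least 760.2-fold higher than in liver. Sfta2, a surfactant-associated gene, had 66.1, 71.8 and 47.4 CPM, at least 587-fold higher. Cxcl17, a mucosal chemokine, had 49.3, 57.1 and 30.1 CPM, at least 432-fold higher. Nppa, the atrial natriuretic peptide gene, had 109.8, 20.4 and 30.9 CPM, at least 510.4-fold higher. It is a member of the heart muscle list, whose genes are described below with markers of neighbouring organs.

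**Figure D2:**
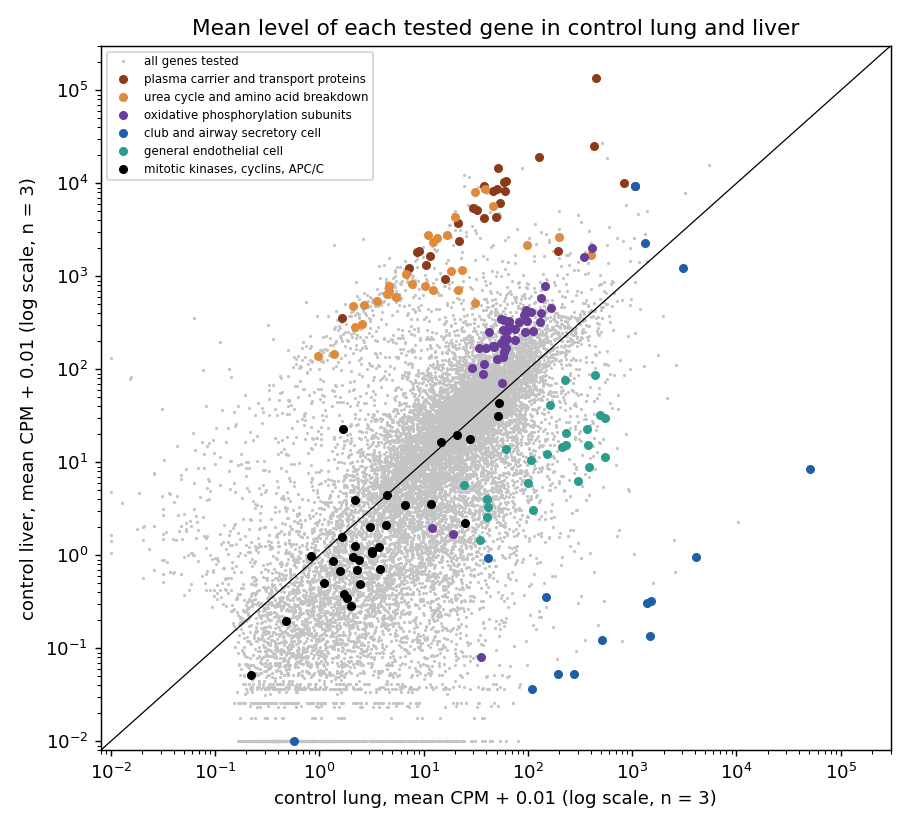
Mean CPM of each tested gene in control lung (x axis, log scale) and control liver (y axis, log scale), 3 libraries each, with 0.01 CPM added to plot genes without counts; colours mark 6 gene lists and the line marks equal levels. Plasma proteins and urea cycle genes form a band far above the line, oxidative phosphorylation genes lie above it, endothelial genes below it, and most mitotic genes lie at low levels below it.

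Transcripts of the liver lists were also counted in the lungs. Of 280 genes of the 12 liver lists with at least 32 CPM in liver, 131 had a mean lung level between 0.3 and 1 percent of their mean liver level, and 58 had more than 10 percent. The median over the 280 genes was 0.514% in lung TA 1, 0.69% in lung TA 2 and 1.85% in lung TA 3, and 232 of the genes were highest in lung TA 3. For the plasma carrier list alone the medians were 0.232%, 0.322% and 1.3%. Without lung TA 3 the median log2 fold change of that list was 8.45 rather than 7.31, and all 27 genes were still called. In the opposite direction, club cell genes had medians of 0.0177%, 0.0338% and 0.025% of their lung level in livers TA 1, 2 and 3. Ciliated cell genes stood at 0.265%, 0.223% and 0.149%. Alveolar type 2 genes stood at 0.253%, 0.257% and 0.33%, and alveolar type 1 genes at 0.377%, 0.902% and 0.419%. The source of these transcripts in the lung libraries was not tested.

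**Figure D3:**
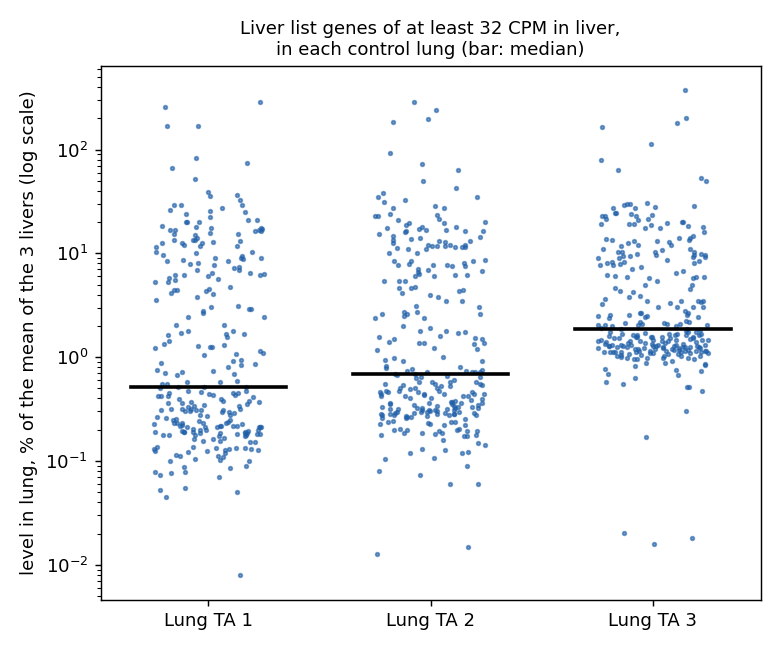
Level of each of 280 liver list genes in the 3 control lungs (x axis) as a percent of its mean in the 3 control livers (y axis, log scale); each point is 1 gene, values of 0 are not drawn, and the bar is the median. The dense band of genes and the medians (0.514%, 0.69% and 1.85%) sit higher in lung TA 3 than in the other lungs.

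Endothelial genes were higher in lung as a group. All 23 general endothelial markers were called, with a median log2 fold change of -3.91, and Pecam1, an adhesion molecule of endothelial junctions, had 558, 443 and 655 CPM in the lungs and 28.2, 32.8 and 28.0 CPM in the livers. All 20 lung capillary markers were called too, such as Ace, angiotensin-converting enzyme, at 583 to 870 CPM against 1.3 to 2.4 CPM. Sinusoidal endothelial markers went the other way in 13 of 17 genes: Stab2, a hyaluronan scavenger receptor, had 59.4 to 74.9 CPM in the livers and 1.35 to 2.11 CPM in the lungs, and Clec4g 60.3 to 73.1 against 1.18 to 1.76 CPM. Lyve1, which sinusoids share with lymphatic vessels, was the 1 member higher in lung (197 to 429 against 7.43 to 28.4 CPM). Stab1 overlapped between tissues (39.9 to 69.4 CPM in liver, 68.9 to 88.3 CPM in lung) and was called higher in lung only without liver TA 2 (adjusted p = 0.0348).

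Connective tissue genes were higher in lung in 28 of 34 fibrillar and elastic matrix genes, 20 of 23 basement membrane genes and 17 of 20 smooth muscle and pericyte genes. Sparc, a collagen-binding matrix protein, had 679 to 1073 CPM in the lungs and 74.8 to 103 CPM in the livers. Col4a1, a basement membrane collagen, had 387, 305 and 736 CPM in lungs TA 1, 2 and 3 and 43.7 to 72.2 CPM in the livers. Liver exceeded lung in Fn1 (fibronectin, also a plasma protein; 2429 to 3638 against 96.6 to 203 CPM) and Col18a1 (1410 to 1983 against 25.9 to 58.7 CPM). Stellate cell markers were higher in liver in 12 of 19 genes, for example Colec10 (42.5 to 49.9 against 0.254 to 0.649 CPM) and Reln (53.5 to 88.6 against 7.82 to 9.15 CPM). The stellate list also held 3 genes higher in lung, Nes, Des and Hhip, of which Des encodes a muscle intermediate filament. Its summed level overlapped between tissues (614 to 783 CPM in the livers, 543 to 649 CPM in the lungs). Of 14 bile duct markers, 9 were higher in lung, where airway epithelium shares keratins: Krt19 had 137 to 162 CPM in the lungs and 2.17 to 2.77 CPM in the livers.

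Macrophage genes separated the resident types. Kupffer cell markers were higher in liver in 13 of 17 genes, with Clec4f, a Kupffer cell lectin, at 245, 127 and 176 CPM in the livers and 0.691 to 1.61 CPM in the lungs. Alveolar macrophage markers were higher in lung in 14 of 18 genes, with Chil3 at 308 to 337 CPM in the lungs and 0.0793 to 0.713 CPM in the livers. Of 20 genes general to macrophages and monocytes, 6 were higher in liver, 6 in lung and 8 were not called. The complement subunit C1qb had 61.1 to 153 CPM in the livers and 23.7 to 32 CPM in the lungs, while Lyz2 (lysozyme, also made by type 2 cells) had 77.7 to 146 CPM in the livers and 1868 to 3612 CPM in the lungs. Of the other immune lists, 16 of 17 B and plasma cell genes and 18 of 22 dendritic cell and MHC class II genes were higher in lung. Of 27 T and natural killer cell genes 11 were higher in lung, a share near the 40.0% of all genes, 1 was higher in liver and 15 were not called, and 20 were higher in lung without liver TA 1. The B cell genes were lower in lung TA 3 than in the other lungs, as Cd79a, a B cell receptor subunit, shows with 22.5, 35.2 and 9.78 CPM in lungs TA 1, 2 and 3 and 1.15 to 1.59 CPM in the livers. Zap70, a T cell kinase, was higher in liver at 15.3 to 18.4 against 4.05 to 7.47 CPM.

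Markers of neighbouring organs varied between libraries of 1 tissue. Heart muscle genes were in all lungs, with Myh6 at 206, 85.5 and 236 CPM against at most 0.436 CPM in a liver. The skeletal muscle actin Acta1 had 137, 1.72 and 452 CPM in lungs TA 1, 2 and 3 and 6.6, 104 and 25.1 CPM in the livers, and was not called. Pancreatic enzymes were in liver TA 1 and, at a lower level, liver TA 2: Ctrb1 (chymotrypsinogen) had 94.6, 16.2 and 0.587 CPM and Cela2a (elastase) 45.4, 15.4 and 1.3 CPM in livers TA 1, 2 and 3, against at most 0.0633 CPM in a lung. Ctrb1 was among the 15 largest fold changes towards liver (10.76), and its call ended without lung TA 1 (adjusted p = 0.0515). Kap, a kidney gene that did not pass the filter, had 865 counts in liver TA 1 and 0 in the other 5 libraries. The part of tissue sampling in these values was not tested.

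**Figure D4:**
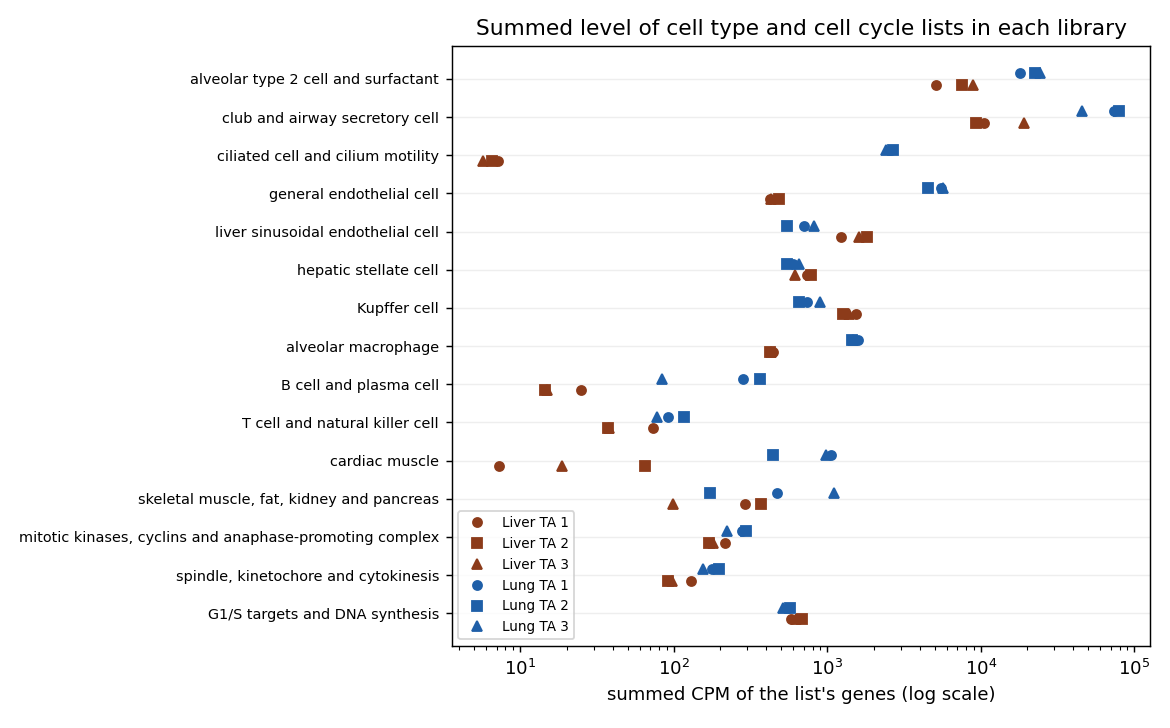
Summed CPM (x axis, log scale) of 15 lists of cell type and cell cycle genes (y axis) in each control library, brown for liver and blue for lung, with the marker shape giving the library number. Livers and lungs separate for most lists, while hepatic stellate cell genes and skeletal muscle, fat, kidney and pancreas genes overlap between tissues. B cell genes are lowest among lungs in TA 3 (83.6 against 281 and 363 CPM).

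The machinery common to all cells was not equal between tissues. Of 44 oxidative phosphorylation subunits, 40 were higher in liver and the median log2 fold change was 1.86 (0.587 under total-count scaling, with 28 called). Atp5b, the catalytic subunit of ATP synthase, had 1884 to 2187 CPM in the livers and 336 to 540 CPM in the lungs. The 3 subunits higher in lung were tissue-specific isoforms: Cox4i2, the lung form, had 27.6 to 40.2 CPM in the lungs and 0.0471 to 0.0839 CPM in the livers, and Cox6a2 and Cox7a1, the heart and muscle forms, had 12.9 to 23.8 and 7.79 to 17.2 CPM in the lungs against 0.165 to 4.56 and 1.25 to 3.33 CPM in the livers. The log2 difference of Cox6a2 was -3.54, and -6.26 without liver TA 2, and its call ended without liver TA 3 (adjusted p = 0.0634), lung TA 1 (0.0781) or lung TA 2 (0.0603). Of 34 proteasome genes, 31 were higher in liver with a median of 1.18, which turned to -0.0861 under total-count scaling. The median of 38 cytosolic ribosomal protein genes was 0.00671, with 6 called higher in liver and 3 in lung, and it turned negative under upper-quartile (-0.316), total-count (-1.27) and RLE (-0.00488) scaling and without lung TA 3 (-0.0826). Of 15 commonly used reference genes, 7 were higher in liver, 3 in lung and 5 were not called, and their median of 0.458 turned to -0.805 under total-count scaling. Gapdh had 1484 to 1758 CPM in the livers and 300.1 to 411 CPM in the lungs, and Actb 374 to 527 against 1008 to 1361 CPM.

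Resting proliferation was described by the levels of cell cycle genes. The 145 tested genes of the mitotic, spindle and G1/S lists had a median level of 2.02 CPM in liver and 2.82 CPM in lung, and 39 of them stayed under 1 CPM in all 3 livers against 17 in all 3 lungs. Of the 145 genes, 60 were called higher in lung (41.4%, near the 40.0% of all genes) and 13 higher in liver (8.97%, beside 32.3% of all genes). The count in lung fell to 37 without lung TA 2 and was 126 under total-count scaling. The median log2 fold change was -1.15 for the 32 mitotic kinase, cyclin and anaphase-promoting complex genes, -1.12 for the 54 spindle, kinetochore and cytokinesis genes and -0.338 for the 59 G1/S and DNA synthesis genes. Relative to the median of all genes these were -0.932, -0.906 and -0.124. The summed level of the G1/S list went the other way, at 577 to 682 CPM in the livers and 511 to 574 CPM in the lungs. Summed levels of the mitotic and spindle lists were lower in every liver than in every lung. B cell markers were higher in the same lungs (16 of 17 genes, summing to 83.6 to 363 CPM against 14.5 to 24.8 CPM in the livers), and the part of these cells in the proliferation genes was not tested.

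In the mitotic list, 17 of 32 genes were higher in lung (beside 40.0% of all genes), 1 in liver (beside 32.3%) and 14 were not called. Plk1, a kinase of mitotic entry and exit, had 2.52, 2.86 and 1.55 CPM in lungs TA 1, 2 and 3 and 0.707, 0.476 and 0.881 CPM in the livers (log2 difference -1.75 ± 0.41, adjusted p = 0.0065). Ccnb2, a mitotic cyclin, had 1.89, 2.25 and 2.15 CPM in the lungs and 0.966, 0.912 and 0.965 CPM in the livers (-1.14 ± 0.30, adjusted p = 0.011). Cdc25b, a phosphatase that activates CDK1, was the largest of the list towards lung (-3.49 ± 0.36, adjusted p = 0.00012). Cdk1, the mitotic kinase itself, overlapped between tissues with 3.65, 0.991 and 1.43 CPM in the livers and 3.01, 4.24 and 1.96 CPM in the lungs (adjusted p = 0.36). Ccnf, an F-box cyclin, was the 1 mitotic member higher in liver, at 31.9, 19.4 and 16.3 CPM against 1.53 to 1.83 CPM (3.74 ± 0.30, adjusted p = 3.9e-05).

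In the spindle list, 24 of 54 genes were higher in lung, a share near the 40.0% of all genes. Another 3 were higher in liver (beside 32.3% of all genes) and 27 were not called. Mki67, the proliferation antigen Ki-67, had 6.38, 2.7 and 3.31 CPM in livers TA 1, 2 and 3 and 8.68, 12.1 and 8.8 CPM in the lungs (-1.24 ± 0.36, adjusted p = 0.016), a call that ended without liver TA 3 (adjusted p = 0.0618) or lung TA 2 (0.0549). Top2a, which untangles replicated DNA, had 4.67, 1.82 and 2.73 CPM against 6.08, 7.35 and 5.95 CPM (-1.06 ± 0.36, adjusted p = 0.032), and its call ended when any 1 library other than liver TA 1 was left out (adjusted p = 0.0501 to 0.0962). Smc4, a condensin subunit, had 14.7 to 19.1 CPM in the livers and 29.4 to 42.5 CPM in the lungs (-1.17 ± 0.19, adjusted p = 0.0011). The kinetochore genes Cenpm (2.5 to 6.38 against 0.396 to 0.564 CPM), Spc24 (7.4 to 12.2 against 1.79 to 3.03 CPM) and Spc25 (3.05 to 9.94 against 1.17 to 2.4 CPM) were higher in liver, and the log2 difference of Spc25, 1.56, was 0.734 without liver TA 1, where its call ended (adjusted p = 0.134), as it did without lung TA 1 (0.0764) or lung TA 3 (0.0928). Among livers, 90 of the 145 proliferation genes were highest in TA 1, the female liver with pancreatic and kidney transcripts. Among lungs, 94 of them were lowest in TA 3, which stood apart within its group. The same shares over all genes are not given here, so these counts cannot be read as particular to proliferation genes.

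The promoter windows of Ccnb2 and Cdk1 are printed since mitotic genes share the cell cycle homology region, the letters TTTGAA or TTCGAA on either strand, through which they are repressed in quiescent cells; capitals mark the matches.
Ccnb2 promoter window (chr9:70421505-70421804, minus strand): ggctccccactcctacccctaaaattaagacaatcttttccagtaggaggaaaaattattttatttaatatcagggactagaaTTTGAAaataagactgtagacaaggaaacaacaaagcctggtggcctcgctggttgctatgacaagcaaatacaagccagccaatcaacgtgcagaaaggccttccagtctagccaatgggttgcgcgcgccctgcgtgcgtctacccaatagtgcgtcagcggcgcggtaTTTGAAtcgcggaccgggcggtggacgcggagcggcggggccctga
Cdk1 promoter window (chr10:69352863-69353162, minus strand): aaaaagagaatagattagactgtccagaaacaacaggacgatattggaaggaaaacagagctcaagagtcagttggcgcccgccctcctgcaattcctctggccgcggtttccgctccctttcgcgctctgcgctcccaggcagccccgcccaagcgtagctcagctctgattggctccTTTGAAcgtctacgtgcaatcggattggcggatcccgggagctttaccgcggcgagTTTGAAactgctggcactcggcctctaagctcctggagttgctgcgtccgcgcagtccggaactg
These letters were in 16 of 25 windows of the mitotic list (64.0%) and 38 of 51 of the spindle list (74.5%), against 11 of 55 of the G1/S list (20 percent) and 19.2% of all windows.

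The G1/S list was mixed, with 19 of 59 genes higher in lung, 9 in liver and 31 not called. Both shares were below those of all genes (40.0% and 32.3%). Mcm6, a subunit of the replicative helicase, was higher in lung at 18.3 to 19.8 against 5.54 to 6.69 CPM (-1.67 ± 0.16, adjusted p = 8.2e-05), and so was Mcm4 at 15 to 20.4 against 4.56 to 8.98 CPM. Cdc7, the kinase that fires origins, had 3.7, 3.6 and 1.8 CPM in the lungs and 0.0793 to 0.306 CPM in the livers. Pcna, the polymerase clamp, did not pass the test at 38.5 to 43.6 CPM in the livers and 46.2 to 53.4 CPM in the lungs (adjusted p = 0.073), although the tissues did not overlap, and passed it without lung TA 3 (0.0281). Higher in liver were Mcm10, a replication initiation factor, at 33.6, 178 and 73.1 CPM against 1.3, 1.63 and 3.13 CPM (5.57 ± 0.75, adjusted p = 0.00055), and the nucleotide synthesis genes Tk1, at 19.97 to 39.5 against 2.63 to 4.47 CPM (3.07 ± 0.32, adjusted p = 0.00012), and Rrm2, at 7.39 to 19.2 against 2.64 to 3.97 CPM. Ung, a uracil-DNA glycosylase, had 7.73 to 34.2 against 1.3 to 2.07 CPM. In the annotation used here Mcm10, Ung and Rrm2 share no exon base with another gene, and Tk1 shares 5.76% with Afmid. Of 30 replication-dependent histone genes only 6 passed the filter. Hist1h2bc was the higher of the 2 called, at 120.3 to 140.4 CPM in the livers and 35.8 to 60.2 CPM in the lungs. The histone genes that did not pass had few or no counts in both tissues. The part of the library kit in these histone values was not tested, so they cannot be read as a level of DNA synthesis.

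**Figure D5:**
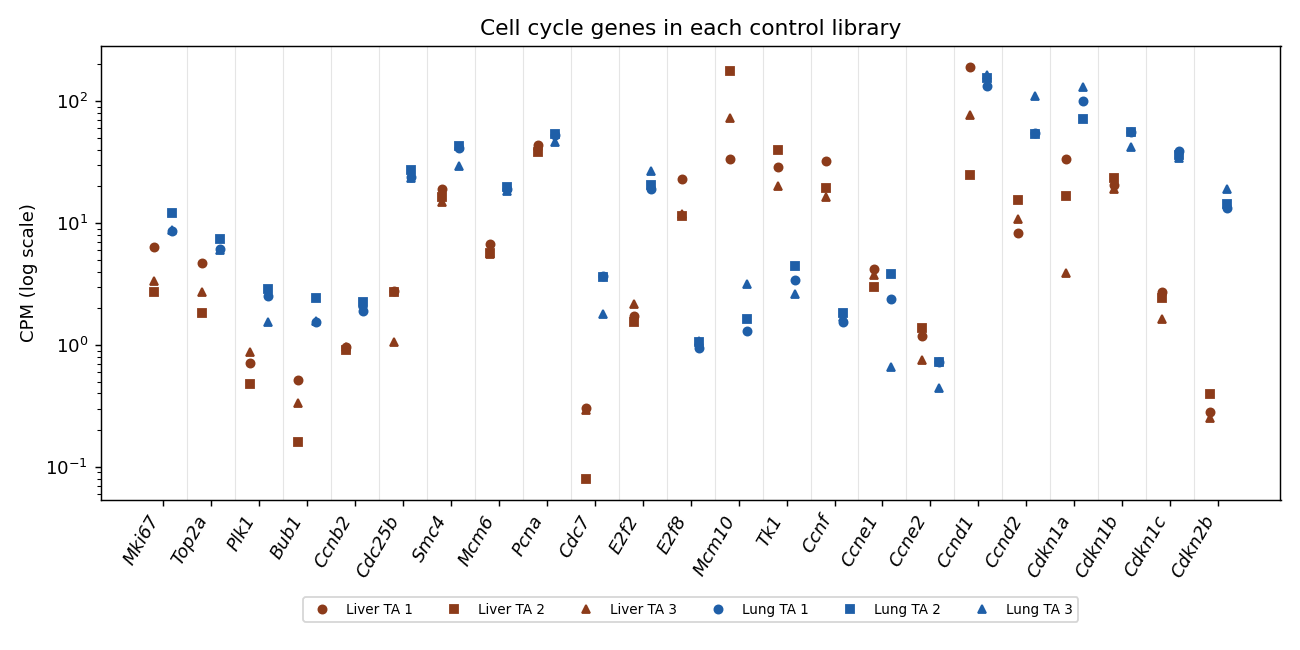
CPM (y axis, log scale) of 23 cell cycle genes (x axis) in each control library, brown for liver and blue for lung, with the marker shape giving the library number. Mitotic genes such as Plk1 and Bub1 sit below 3 CPM in every library and lower in liver, E2f8, Mcm10, Tk1 and Ccnf sit higher in liver, and Ccne1 overlaps between tissues.

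Ccne1, the gene that the study overexpresses, was low in both control tissues: 4.17, 3.01 and 3.73 CPM in livers TA 1, 2 and 3 and 2.37, 3.84 and 0.665 CPM in the lungs. The tissues overlapped, and the log2 difference of 0.66 ± 0.58 was not called (adjusted p = 0.33; two-sided exact permutation test over the 6 libraries, p = 0.3, where 0.1 is the smallest this design allows). Without lung TA 3 the log2 difference was 0.235, without lung TA 2 it was 1.25 (adjusted p = 0.102), and under total-count scaling it was -0.61. With the Xist level as a covariate it was 1.26 (edgeR adjusted p = 0.0658). Ccne2 had 0.755 to 1.39 CPM in the livers and 0.443 to 0.731 CPM in the lungs and was not called, nor was their kinase Cdk2, at 12.4 to 15.6 and 11.7 to 17.8 CPM. Of the genes that degrade cyclin E, Fbxw7, its F-box receptor, was higher in lung at 18.3 to 19.3 against 8.92 to 11.1 CPM (-0.94 ± 0.15, adjusted p = 0.0011), while the ubiquitin ligase subunits Skp1a, Cul1 and Cul3 were higher in liver with log2 differences of 0.78, 0.65 and 0.69, which turned to -0.50, -0.62 and -0.58 under total-count scaling. Of the 13 genes of this list, 3 were higher in each tissue and 7 were not called.

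Among D-type cyclins, Ccnd2 was higher in lung (54.1 to 109.9 against 8.27 to 15.4 CPM; -2.67 ± 0.36, adjusted p = 0.00048) and Ccnd3 too (60.5 to 82.6 against 35.8 to 37.5 CPM). Ccnd1 varied among livers, with 192, 24.7 and 76.9 CPM in TA 1, 2 and 3 and 133 to 165 CPM in the lungs, and was not called, but was called higher in lung without liver TA 1 (log2 difference -1.60, adjusted p = 0.0246). Within the E2F family the activator E2f2 was higher in lung, at 19.1, 20.5 and 26.5 against 1.72, 1.55 and 2.18 CPM (-3.60 ± 0.23, adjusted p = 1.6e-05), and the atypical repressor E2f8 higher in liver, at 22.9, 11.3 and 11.8 against 0.938 to 1.08 CPM (3.91 ± 0.35, adjusted p = 5.9e-05). E2f1 was not called (adjusted p = 0.099). The pocket proteins differed by member: Rb1 (30.9 to 36.1 against 7.85 to 15 CPM) and Rbl1 (8.96 to 10.9 against 2.81 to 3.51 CPM) were higher in lung, and Rbl2 higher in liver (58.7 to 77.0 against 39.6 to 41.7 CPM), turning to -0.58 under total-count scaling.

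CDK inhibitors and quiescence genes were mostly higher in lung, 15 of 23 (beside 40.0% of all genes), with 2 higher in liver and a median log2 fold change of -1.29. Cdkn2b, the inhibitor p15, had 13.4, 14.3 and 19.1 CPM in the lungs and 0.283, 0.396 and 0.252 CPM in the livers (-5.65 ± 0.30, adjusted p = 8.4e-06). Cdkn1c, the inhibitor p57, had 34.3 to 39.0 against 1.64 to 2.73 CPM (-4.00 ± 0.22), and Cdkn1b, the inhibitor p27, 42.0 to 56.3 against 18.9 to 23.4 CPM (-1.29 ± 0.17). Cdkn1a, the p53 target p21, had 33.6, 16.5 and 3.86 CPM in livers TA 1, 2 and 3 and 99.9, 71.9 and 132 CPM in the lungs (-2.48 ± 0.70, adjusted p = 0.016), and its call ended without liver TA 2 (adjusted p = 0.0534) or lung TA 1 (0.0545). The Krüppel-like factors Klf2 and Klf4 were at 86.1 to 120 and 75.9 to 108 CPM in the lungs and at most 7.16 and 2.03 CPM in the livers. The exceptions were Gas2 (36.2 to 77.9 against 2.28 to 2.71 CPM) and the antiproliferative Tob1 (106 to 192 against 31.7 to 35.8 CPM), both higher in liver. Of 20 immediate early genes, which respond quickly to stimuli, 13 were higher in lung and none in liver, for example Jun at 170 to 203 against 15.4 to 42.0 CPM.

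The tissue difference was also measured in the 6 CCNE-TA libraries of liver and lung, none of which is shared with the controls; there 4350 genes were called higher in liver (26.5% of 16399 tested) and 5546 higher in lung (33.8%). Of the genes called higher in control liver and tested there, 69.1% (3557 of 5149) were called in the same direction and 1.15% in the other, and of those higher in control lung 73.9% (4687 of 6346) and 0.567%. In CCNE-TA tissues 6 of the 32 listed mitotic genes were called higher in liver and 1 in lung. The median log2 fold change of the mitotic list was 0.364 against -1.15 in controls. Of the 55 listed spindle genes, 7 were called higher in liver and 3 in lung (median 0.218 against -1.12). Both liver shares were below the 26.5% of all genes there, and both lung shares below the 33.8%. A fit of all 12 libraries tested whether the tissue difference itself changed. It called 1373 of 16793 genes (8.18%), and 2 of 32 mitotic, 2 of 55 spindle and 2 of 59 G1/S genes, shares below that background. Without 1 library the fit called from 113 genes (without lung TA 2) to 2672 (without the CCNE-TA liver 2). The median of this difference was -1.36, -1.23 and -0.311 for the 3 lists and -0.147 for all genes. Ccnb2 was 1 of the 2 mitotic genes, a call that ended in 8 of the 12 fits that left out 1 library, with 5.5, 8.02 and 13.1 CPM in CCNE-TA livers against 0.951 to 1.03 CPM in control livers on the scale of that fit.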

How the data were processed

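Whole-tissue RNA of 6 control libraries (3 liver, 3 lung) was compared. Per the submitters' processing notes the authors used TopHat2 2.0.14, Bowtie2 2.2.6 and featureCounts 1.4.6 with mm10 and, per the labels' protocols, a TruSeq RNA v2 kit from 100 to 200 ng RNA. The annotation, the strand setting and the treatment of reads with several matches are not given in the sources used here, so reads of overlapping, antisense or near-identical genes cannot be told apart. The authors deposited raw counts per gene symbol. Between 64.7 and 68.7 percent of counts from 1 to 20 were even, so both reads of a pair may have been counted, and the limits set at 3 counts cover counting error only.

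Genes were filtered with filterByExpr, scaled by TMM and tested with edgeR 4.0.16 (R 4.3.3, quasi-likelihood, robust, liver minus lung, Benjamini-Hochberg over 16043 genes, adjusted p under 0.05). The procedure was also run on simulated counts in which few genes differed between groups. Most genes differed between these tissues, so that run does not test the scaling used here. A reduced annotation (GENCODE M21 basic, GRCm38, the same build) gave exon lengths for 98.5% of symbols, and RefSeq gave the promoter windows. The members and gene lists were chosen with earlier results of these data known. Named genes are Ccne1, the 15 largest fold changes per direction (called, at least 32 CPM in the higher tissue, no overlap), the 10 highest levels per kilobase per tissue, the most abundant or most significant members of each list, and members called against their list. Ccnb2, Cdk1, Ube2c, Ckap2, Arg1, Foxa1, Foxa2, Foxa3, Cyp7a1, Rrm2, Mcm4, Slc2a1 and Aldoa were added after their values were seen. The fit of 12 libraries, and its repeats without each library, were chosen after seeing the data. Alternatives were DESeq2 1.42.0, limma-voom (limma 3.58.1), other scalings, filters and models, and leaving out each library. The 6 CCNE-TA libraries of liver and lung were fitted on their own and with the controls, and kidney libraries entered only the fit of 18 libraries. Figures were drawn with matplotlib. Some items of the lists are not reported here.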

Additional observations from a re-analysis of the deposited data

Results flagged for a closer look

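For 6 proliferation genes the liver minus lung difference was called different between control and CCNE-TA mice, in 1 edgeR quasi-likelihood fit of 12 libraries. These were 2 of 32 mitotic, 2 of 55 spindle and 2 of 59 G1/S genes, shares below the 8.18% of all genes tested. The value given is the log2 difference in controls minus that in CCNE-TA. It was -2.17 for Ccnb2 (adjusted p = 0.0338), -2.67 for Ube2c (0.0347), -1.6 for Spc24 (0.0408) and -3.18 for Ckap2 (0.0117). For these 4 genes CCNE-TA livers were above control livers in every library, for example 6.29 to 13 against 0.455 to 0.836 CPM for Ckap2, a spindle-associated protein. It was 0.933 for the clamp loader subunit Rfc1 (0.0214) and 1.16 for the deubiquitinase Usp1 (0.0497), where control livers were higher, at 33.0 to 36.3 against 16.6 to 19.3 CPM for Rfc1. Each of the 12 libraries was also left out in turn, which leaves fewer samples to fit. Ckap2 was called in all 12 of these fits (-3.42 to -2.88). The call ended in 4 fits for Rfc1 (highest adjusted p 0.0708), 8 for Ccnb2 (0.0874), 8 for Ube2c (0.0894), 10 for Spc24 (0.108) and 11 for Usp1 (0.118), in each case including the fits without control lung TA 1 and without control lung TA 2, and the direction was the same in all 12 fits for the 6 genes.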

How the results depend on the processing

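Of 20 alternatives to the scaling, filter, model and libraries, total-count scaling moved the counts most: 1920 genes were called higher in liver and 11373 in lung, 1464 and 9571 at 2-fold or more, and 6 and 126 of the proliferation genes. It also turned the log2 differences of Ctsh (-0.449), Skp1a (-0.498), Cul1 (-0.617), Cul3 (-0.579) and Rbl2 (-0.578). The share of calls higher in liver was 44.7%, and 34.5% under upper-quartile scaling (3978 and 7537 genes) and 14.4% under total counts. Leaving out each library in turn gave 4463 to 5405 genes higher in liver, 5607 to 6704 higher in lung, and 37 to 69 proliferation genes higher in lung, the lowest without lung TA 2, where fewer samples were fitted.

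Replicate numbers were not used to pair the libraries. The deviations of same-numbered libraries correlated at 0.166, -0.308 and 0.0337, and those of unlike-numbered libraries at -0.256 to 0.26. These correlations cannot show whether a liver and a lung share a mouse. By the sex markers liver TA 2 was male and lung TA 2 female, while the libraries numbered 1 and 3 matched in sex. With the replicate number as a block, 4753 genes were higher in liver and 5860 in lung, 3398 and 5209 at 2-fold or more, 10 and 45 proliferation genes were called, and the log2 difference of Ccne1 was 0.948 (edgeR adjusted p = 0.225). Depth limits genes near 3 counts, which correspond to 0.0238 to 0.126 CPM.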

Other observations

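Some abundant transcripts were nearly without counts in this table. Ass1, the urea cycle enzyme argininosuccinate synthase, had 9, 9 and 7 counts in livers TA 1, 2 and 3 and 1 count in each lung, while its pathway neighbour Arg1 had 2524 to 2600.3 CPM in the livers. The adult globin genes Hba-a1, Hba-a2, Hbb-bs, Hbb-bt and Hbb-b1 had 0 counts in all 6 libraries, whereas Alas2, the erythroid enzyme of heme synthesis, had 34.9, 266 and 249 CPM in the livers and 27.6 to 63.6 CPM in the lungs and was called higher in liver only without liver TA 1 (edgeR adjusted p = 0.00208). These genes have near-identical copies in the genome, and the part of that in the counts was not tested. The red blood cell content of these libraries can therefore not be read from globins here.

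Wnt and Hippo targets differed by member. Of 33 genes of the Hippo, Wnt and TGF-beta list, 23 were higher in lung (beside 40.0% of all genes) and 5 in liver. Those higher in liver included the Wnt targets Notum (37.2 to 69.0 against 4.59 to 6.19 CPM), Rnf43 (31.5 to 46.4 against 7.37 to 14.3 CPM) and Lgr5 (4.72 to 8.01 against 0.445 to 0.601 CPM), and those higher in lung included Nkd1 (96.0 to 149 against 6.46 to 10.6 CPM) and the Hippo target Ctgf (113 to 141 against 6.88 to 22.3 CPM).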
